A study of Macaca mulatta with 24 samples.

Results

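RSPO1, RSPO2, RSPO3, WNT2B, WNT5A, GREM1, BMP4, BMP2, SFRP1 and FOXL1 encode signals, and 1 transcription factor, of the stromal niche around the intestinal crypts. Their probes were followed in the ileum of 24 rhesus macaques (Macaca mulatta) after total-body irradiation (TBI). Every probe whose symbol in the deposited normalized table is one of these 10 genes was taken, which gave 11 probes of 8 genes among 43603 probes. GREM1 had 3 probes, BMP4 had 2, and RSPO2, WNT2B, WNT5A, BMP2, SFRP1 and FOXL1 had 1 each. RSPO1 and RSPO3 had no probe under their own symbols. The table holds 1 probe under a provisional symbol whose gene ID belongs to RSPO1, and 2 probes whose gene ID belongs to RSPO3, in the RefSeq table of assembly T2T-MMU8v2.0. These 3 probes are described beside the others but are left out of all counts over the 11.

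The animals were young adult males. Of the 24, 4 were sham-irradiated controls, labelled day 4 and used as the baseline for every day, and 20 received 1 uniform gamma dose from a cobalt source. After 6.7 Gy and after 7.4 Gy alike, 4 animals were studied on day 4, 4 on day 7 and 2 on day 12, and the labels name no other agent. For the last day, the protocol text in the labels gives 21 days where the titles, the day field and the methods of the study give 12, and 12 was used. Each array held RNA of the whole gut wall of 1 animal, so crypts, villi, lamina propria, muscle coat and nerves were measured together, and the labels do not pair animals of different groups.

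Crypt stem cells of the small intestine depend on signals from the mesenchyme below and beside them. WNT ligands bind Frizzled and LRP receptors and stabilise beta-catenin, and R-spondins strengthen this by binding LGR receptors and clearing the ubiquitin ligases RNF43 and ZNRF3 that remove Frizzled from the membrane. Bone morphogenetic proteins (BMPs) act in the opposite sense, towards the villus, where they limit stemness and favour differentiation. Antagonists secreted around the crypt base, among them gremlin 1 (GREM1), bind BMPs and keep their signal low there. Secreted frizzled-related proteins such as SFRP1 bind WNT ligands. FOXL1 marks subepithelial telocytes, cells that supply WNT5A and BMPs to the epithelium.

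Signals are given as the log2 intensity of a probe minus the 75th percentile of its array, so that 0 is that percentile and 1 unit is a 2-fold difference. Because probes differ in affinity, levels were compared between groups within a probe. Where a probe is called dimmer or lower than another, this describes its intensity and not the amount of RNA. The 75th percentiles were 837 to 1330 intensity units, and 72.7% to 88.1% of probes were well above background. The test took in the 36110 probes that exceeded background clearly on all arrays of some group, all 14 described here among them. WNT5A was well above background on 16 of the 24 arrays and RSPO3 probe 2 on 18, the other 12 probes on all. A probe was said to rise or fall when limma gave a Benjamini-Hochberg adjusted p below 0.05, over all tested probes, and the change was at least 2-fold.

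Control replicate 1 stood apart from the other 3 controls. The mean signal of 6 smooth muscle markers was 2.13 in this animal and 4.36 to 4.46 in the other controls. ACTG2, the smooth muscle actin of the gut wall, was at 5.04 in it and at 8.01 to 8.23 in the others. Array position was also tied to the groups. All 4 controls were hybridized at position 1 of their slides, as were 2 of the 4 animals of 6.7 Gy day 4, and the other day 4 animals at position 2. The later groups were at positions 3 and 4, so for them the difference in day from the controls and from day 4 cannot be told apart from position. Both day 12 groups shared position 4 with 2 animals of 7.4 Gy day 7.

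On day 4, GREM1 rose 4.25-fold over both doses by its brightest probe, or 2.73-fold without control replicate 1, and its probe 3 did not pass. RSPO3 rose 3.37-fold by its probe 1, or by less than 2-fold with normexp background correction, and its probe 2 did not pass. RSPO2 and SFRP1 were higher by less than 2-fold, and limma called no probe of WNT2B, BMP2, BMP4, FOXL1 or RSPO1. WNT5A entered the test only through the controls, so it is given with no test against them. After 6.7 Gy, 2 of the 11 probes were called on day 4, where 0.978% of all tested probes were. After 7.4 Gy, 2 of 11 were called against 2.33% of all probes, and with both doses averaged 2 of 11 against 2.06%. These 2 probes were GREM1 probes 1 and 2 each time, so the count rests on a single gene. Counts out of 11 against the controls, here and below, include WNT5A in the 11. It was not among the probes called here. At any fold, the adjusted p over both doses was below 0.05 for 4 of 11, RSPO2 and SFRP1 being the other two, against 9.24% of all probes. The groups did not overlap for 2 of 11 probes after 6.7 Gy and for 5 of 11 after 7.4 Gy, where 11.8% and 15.7% of all tested probes did not overlap. In tissue of mixed cells, fewer or more cells of a type cannot be told apart from less or more RNA per cell.

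**Figure D1:**
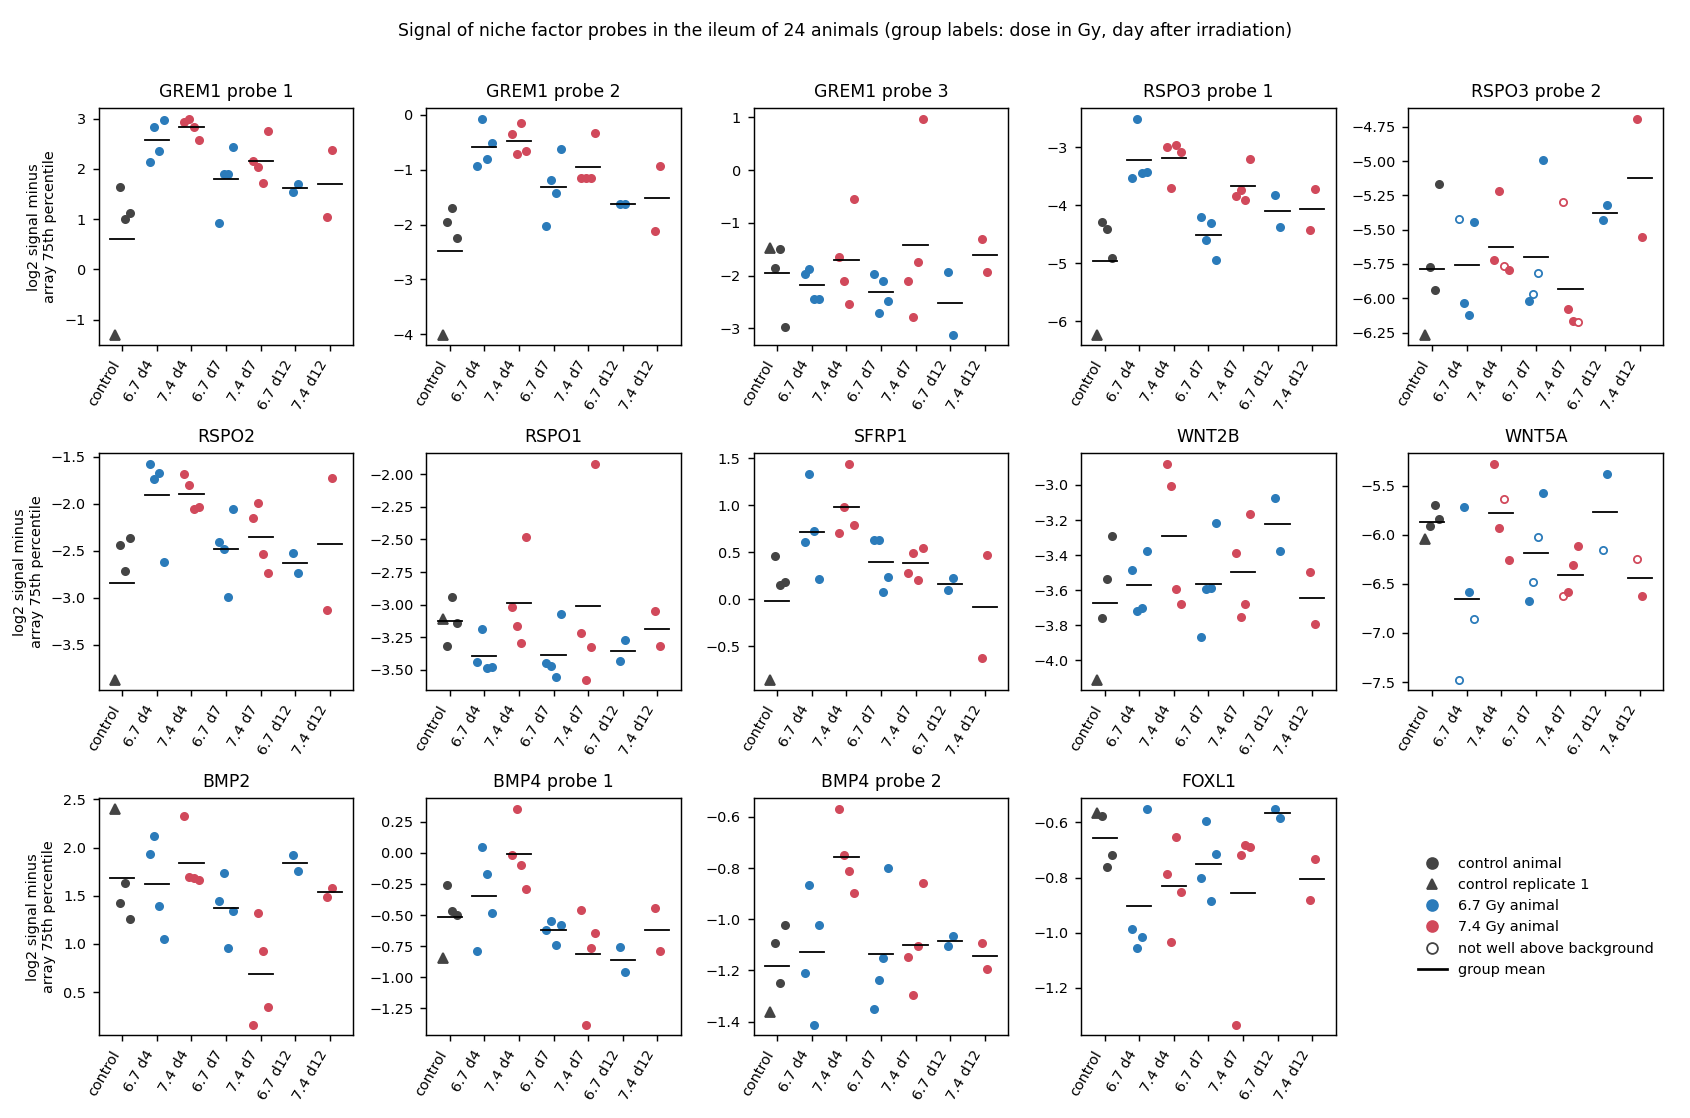
Signal of each of the 14 probes in each animal, as log2 intensity minus the array's 75th percentile (vertical axis), for the 7 groups (horizontal axis, dose in Gy and day). Points are animals, the triangle is control replicate 1, open points are not well above background and lines are group means. GREM1 probes 1 and 2 and RSPO3 probe 1 lay above all controls in all 8 day 4 animals, and GREM1 probe 3 and RSPO3 probe 2 did not.

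GREM1, the secreted antagonist of BMP2 and BMP4, had the largest changes among the 11 probes. The signal of its probe 1 was -1.29, 1.63, 1.0 and 1.12 in control replicates 1 to 4. It was 2.14, 2.84, 2.35 and 2.97 on day 4 after 6.7 Gy, and 2.92, 3.00, 2.83 and 2.58 after 7.4 Gy. All 8 irradiated animals lay above all 4 controls, and control replicate 1 lay far below the other 3. The increase was 1.96 ± 0.46 (log2 change ± SE, 4 against 4 animals) after 6.7 Gy, or 3.89-fold, with a limma adjusted p of 0.0307. After 7.4 Gy it was 2.22 ± 0.46, or 4.65-fold, with a limma adjusted p of 0.00941.

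Probe 2 of GREM1 gave nearly the same picture at a lower signal. It was -4.00, -1.96, -1.69 and -2.25 in the controls. On day 4 it was -0.93, -0.07, -0.81 and -0.51 after 6.7 Gy and -0.35, -0.72, -0.15 and -0.66 after 7.4 Gy. Again no irradiated animal overlapped the controls, and control replicate 1 was the lowest. GREM1 rose by 1.90 ± 0.40 by this probe after 6.7 Gy (3.73-fold, limma adjusted p = 0.0163) and by 2.01 ± 0.40 after 7.4 Gy (4.02-fold, limma adjusted p = 0.00674).

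Probe 3 of GREM1 did not follow the other two. Its signal was -1.47, -1.86, -1.49 and -2.97 in the controls, and its day 4 values of -2.44 to -1.87 after 6.7 Gy and -2.55 to -0.54 after 7.4 Gy overlapped them. The difference over both doses was 0.00 (95% interval -1.05 to 1.06). Over the 24 arrays, which share tissue make-up and control replicate 1, probes 1 and 2 correlated at r = 0.97, and probes 1 and 3 at r = 0.02. The 3 probes carry the same symbol, and where each lies in the transcript is not given in the sources used here. The statements on GREM1 therefore rest on probes 1 and 2.

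The size of the GREM1 change depended on control replicate 1. Without that animal, probe 1 was higher by 1.45 ± 0.30 over both doses on day 4 (2.73-fold, limma adjusted p = 0.0133) and probe 2 by 1.44 ± 0.28 (2.72-fold, limma adjusted p = 0.00907). After 6.7 Gy alone, probe 1 then missed the threshold at 1.32 ± 0.34 (limma adjusted p = 0.0614), and it also missed it without 6.7 Gy day 4 replicate 2 (1.87, limma adjusted p = 0.0602) or replicate 4 (1.83, limma adjusted p = 0.0792). Probe 2 stayed called after 6.7 Gy with each of the 8 animals left out in turn, at 1.39 without control replicate 1 (limma adjusted p = 0.0392). Set against the control on its own slide, the day 4 animal was higher in probe 1 on 4 of 4 slides, by 3.64, 1.34, 1.92 and 1.87. The first of these slides carries control replicate 1. At array position 1, the 2 animals of 6.7 Gy day 4 exceeded the 4 controls by a mean of 1.87 in probe 1, and by 1.24 without control replicate 1. With position as a covariate, the change over both doses was 1.96 ± 0.67, with a limma adjusted p of 0.152.

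RSPO3 and RSPO2 are R-spondins made mainly by stromal cells. RSPO3 probe 1 was at -6.23, -4.29, -4.41 and -4.92 in the controls. On day 4 it was at -3.53, -2.51, -3.44 and -3.43 after 6.7 Gy and at -2.99, -3.71, -2.97 and -3.08 after 7.4 Gy. All 8 irradiated animals lay above all controls, by a margin smaller than the spread among the controls. RSPO3 rose by 1.73 ± 0.34 after 6.7 Gy (3.33-fold, limma adjusted p = 0.0119) and by 1.77 ± 0.34 after 7.4 Gy (3.42-fold, limma adjusted p = 0.00568). By the methods' t-test with Benjamini-Hochberg adjustment neither passed, at adjusted p = 0.246 and 0.132 in place of limma's. The increase over both doses was, without control replicate 1, 1.33 ± 0.25 (2.51-fold, limma adjusted p = 0.00657).

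The RSPO3 change was higher on all 4 slides, by 0.87 to 2.79, against the control on the same slide. At array position 1 it was 1.94, or 1.52 without control replicate 1, and with position as a covariate it was 2.06 ± 0.48 over both doses (limma adjusted p = 0.0496). After 7.4 Gy alone the change with the covariate was 2.18 ± 0.61 (limma adjusted p = 0.105). The probe is dim, with a mean intensity of 40.4 units in the controls. With normexp background correction, which adds an offset of 50 units and so shrinks changes of dim probes, the change over both doses was 0.87 (limma adjusted p = 0.0012), under the 2-fold limit.

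RSPO3 probe 2 was dimmer still and showed no such increase. It was at -6.26, -5.77, -5.94 and -5.17 in the controls, at -6.12 to -5.42 on day 4 after 6.7 Gy and at -5.80 to -5.22 after 7.4 Gy. The groups overlapped, and the difference over both doses was 0.10 (95% interval -0.41 to 0.60). The 2 RSPO3 probes had a correlation of -0.13 over the 24 arrays.

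RSPO2 was at -3.87, -2.44, -2.72 and -2.37 in the controls. It was at -1.58, -1.74, -1.68 and -2.62 on day 4 after 6.7 Gy, and at -1.68, -1.80, -2.06 and -2.03 after 7.4 Gy. The 7.4 Gy animals all lay above the controls, while replicate 4 of 6.7 Gy lay among them. The difference over both doses was 0.95 ± 0.28, or 1.93-fold, which passed the p limit (limma adjusted p = 0.0412) but not the fold limit. It was 0.61 ± 0.26 without control replicate 1 (limma adjusted p = 0.184). Within slides it was higher on 3 of 4, from -0.19 to 2.19, and at array position 1 it was 1.19, or 0.85 without control replicate 1. It passed both limits, at 1.09, 1.11 and 1.07, without control replicate 2, control replicate 4 or 6.7 Gy day 4 replicate 4.

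RSPO1 was at -3.11, -3.32, -2.94 and -3.14 in the controls, and its day 4 values of -3.48 to -3.18 after 6.7 Gy and -3.29 to -2.48 after 7.4 Gy overlapped them. The difference over both doses was -0.07 (95% interval -0.52 to 0.39). The highest RSPO1 signal of all arrays, -1.92, belonged to replicate 4 of 7.4 Gy day 7, which also had the highest signal of GREM1 probe 3, 0.97.

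Of the 9 R-spondins and their receptors and ligases, all tested, RSPO3 alone was called on day 4 over both doses, and the median change was 0.03 against -0.07 over all 14193 genes. On the same day 1.59% of all genes were called higher. LGR5, the R-spondin receptor that marks crypt stem cells, was at -2.78 ± 0.26 (SD, n = 4) in the controls, and differed by 0.03 ± 0.12 (limma adjusted p = 0.906). LGR4 differed by -0.13 and LGR6 by -0.42, neither passing the test. ZNRF3, a ligase that removes Frizzled and is itself a WNT target, was higher by 0.72 ± 0.11 (1.65-fold, limma adjusted p = 0.000785), and by 0.64 without control replicate 1 (limma adjusted p = 0.00625), below the fold limit in both. RNF43, its paralog, differed by 0.42 ± 0.16 (limma adjusted p = 0.1).

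The WNT ligands among the members were WNT2B, a canonical ligand of crypt stroma, and WNT5A, a non-canonical one. WNT2B was at -4.11, -3.76, -3.53 and -3.29 in the controls, at -3.48, -3.72, -3.70 and -3.38 on day 4 after 6.7 Gy and at -2.88, -3.01, -3.59 and -3.68 after 7.4 Gy. The groups overlapped, although 2 animals of 7.4 Gy lay above all controls. WNT2B differed by 0.10 ± 0.20 after 6.7 Gy and by 0.38 ± 0.20 after 7.4 Gy (limma adjusted p = 0.779 and 0.263). Within slides it was higher on 4 of 4, by 0.28 to 0.65, and at array position 1 it differed by 0.07, or by -0.07 without control replicate 1.

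WNT5A was at -6.04, -5.91, -5.69 and -5.84 in the controls. It was at -7.48, -5.71, -6.58 and -6.86 on day 4 after 6.7 Gy, with replicates 1 and 4 not well above background, and at -5.27, -5.93, -5.64 and -6.26 after 7.4 Gy, with replicate 3 not well above it. Of the 6.7 Gy animals 3 lay below all controls and 1 among them, and the difference was -0.79, or -0.10 with normexp. After 7.4 Gy the difference was 0.10. The controls were the only group with WNT5A well above background on all arrays, so it entered the test only through them, and its differences from the controls are given with no test.

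Of the 19 WNT ligands listed, 13 were tested, and limma called 0 on day 4 after either dose or over both, with a median change of -0.13 over both. At an unadjusted p below 0.05 there were 3, 2 and 2. The 13 include WNT5A, which entered the test only through the controls and is among the 3 at the lower dose. WNT5A therefore carries no weight in these counts or in the median. WNT1, WNT2, WNT7A, WNT8A, WNT9A and WNT16 were not tested. WNT6 had a limma adjusted p of 0.0201 over both doses, at 0.83 ± 0.21 (1.78-fold). Of 17 WNT receptors and co-receptors, 15 were tested and limma called 0 over both doses, with 5 at an unadjusted p below 0.05 and a median of 0.15.

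SFRP1 was at -0.85, 0.46, 0.16 and 0.18 in the controls. It was at 0.61, 1.33, 0.72 and 0.21 on day 4 after 6.7 Gy and at 0.71, 0.98, 1.44 and 0.79 after 7.4 Gy. All 7.4 Gy animals lay above the controls, and replicate 4 of 6.7 Gy lay among them. The difference was 0.73 ± 0.28 after 6.7 Gy (limma adjusted p = 0.134) and 0.99 ± 0.28 after 7.4 Gy (1.99-fold, limma adjusted p = 0.0376), just under the fold limit. Over both doses it was 0.86 ± 0.24 (limma adjusted p = 0.0313), and without control replicate 1 it was 0.58 ± 0.23 (limma adjusted p = 0.145). After 7.4 Gy, SFRP1 reached the fold limit without control replicate 2 (1.15) or control replicate 4 (1.06), and with quantile normalization (1.01). Within slides the day 4 animal was higher on 3 of 4, from -0.24 to 1.58, and at array position 1 SFRP1 differed by 0.98, or by 0.70 without control replicate 1.

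SFRP1 belongs to a list of 11 secreted WNT inhibitors, of which 9 were tested. One of them, DKK1, which blocks the LRP co-receptors, entered the test only through 7.4 Gy day 4, where it was high, so it is left out of the counts. Of the other 8, 2 rose over both doses on day 4 and 0 fell: WIF1, which binds WNT ligands, and SFRP2, a relative of SFRP1. Of all genes 1.59% were called higher, and after 7.4 Gy 1.87%. DKK1 did not clear the background on the 4 control arrays. Against the upper limit used for the control mean, it was at least 5.18-fold higher after 7.4 Gy (4 of 4 arrays well above background). After 6.7 Gy it was 4.07-fold higher, but only 3 of 4 arrays were well above background, so this value is no lower bound. Both folds are descriptions with no test.

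WIF1 rose by 2.06 ± 0.53 over both doses (4.16-fold, limma adjusted p = 0.021) and SFRP2 by 2.03 ± 0.51 (4.08-fold, limma adjusted p = 0.0191). In the controls WIF1 ranged from -3.52 to 0.62 and SFRP2 from -4.82 to -1.13, so these baselines were wide. After 6.7 Gy limma called 0 of the 8, with 6 at an unadjusted p below 0.05. After 7.4 Gy it called WIF1, SFRP2 and, in addition, SFRP4 at 1.16 ± 0.34 (2.24-fold, limma adjusted p = 0.0456), which was 1.04 without control replicate 1 (limma adjusted p = 0.134). With control replicate 1 left out, WIF1 (1.19, limma adjusted p = 0.0793) and SFRP2 (1.40, limma adjusted p = 0.0956) no longer passed over both doses.

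BMP4 and BMP2 are the ligands that gremlin 1 binds. BMP4 probe 1 was at -0.84, -0.26, -0.47 and -0.50 in the controls, at -0.79, 0.05, -0.17 and -0.49 on day 4 after 6.7 Gy, and at -0.02, 0.35, -0.10 and -0.29 after 7.4 Gy. BMP4 probe 2 was at -1.36, -1.09, -1.25 and -1.02 in the controls, at -1.21, -0.87, -1.41 and -1.02 after 6.7 Gy, and at -0.57, -0.75, -0.81 and -0.90 after 7.4 Gy. By probe 2 the 7.4 Gy animals did not overlap the controls, and by probe 1 they did. The differences after 7.4 Gy were 0.50 ± 0.20 for BMP4 probe 1 (limma adjusted p = 0.125) and 0.43 ± 0.14 for BMP4 probe 2 (limma adjusted p = 0.0686). After 6.7 Gy they were 0.17 ± 0.20 and 0.05 ± 0.14.

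BMP2 was at 2.40, 1.43, 1.63 and 1.26 in the controls, with control replicate 1 the highest. Day 4 values of 1.05 to 2.12 after 6.7 Gy and 1.66 to 2.33 after 7.4 Gy overlapped the controls, 1 animal of 6.7 Gy lying below them. The difference was -0.06 ± 0.28 after 6.7 Gy and 0.16 ± 0.28 after 7.4 Gy, and over both doses 0.05 (95% interval -0.46 to 0.56).

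Of 13 BMP ligands listed, 10 were tested, and over both doses on day 4 BMP7 rose and BMP3 fell. Of all genes 1.59% were called higher, and of all tested probes 0.762% were called lower. BMP7, made by epithelial and some mesenchymal cells, was at -2.25 ± 0.44 (SD, n = 4) in the controls and rose by 1.66 ± 0.30 (3.16-fold, limma adjusted p = 0.00322). BMP3, an atypical ligand that opposes other BMPs, was at -2.56 ± 0.94 (SD, n = 4) in the controls, and changed by -1.58 ± 0.31 (2.98-fold lower, limma adjusted p = 0.00545). Leaving out control replicate 1, these changes were 1.86 and -1.93, and both stayed called. On day 7 both were still called over both doses, BMP7 at 1.31 ± 0.30 (limma adjusted p = 0.0347) and BMP3 at -1.49 ± 0.31 (limma adjusted p = 0.0175). On that day 0.19% of all genes were called higher and 0.449% of all tested probes lower.

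All 11 BMP antagonists listed were tested, and all 11 had a higher mean on day 4 than in the controls over both doses, where 42.7% of all genes had, with a median change of 0.61. Without control replicate 1 these counts were 11 of 11 and 42.7%. Those called were GREM1 and CHRDL2, where 1.59% of all genes were called higher. CHRDL2, a chordin-like protein, rose by 2.02 ± 0.51 (4.06-fold, limma adjusted p = 0.0191). By dose, GREM1 and CHRDL2 were called after 6.7 Gy, and GREM1 and FSTL1 (1.02 ± 0.24, limma adjusted p = 0.0179) after 7.4 Gy. Without control replicate 1 the median was 0.56, and GREM1 was the only antagonist called over both doses and after 7.4 Gy, where FSTL1 was at 0.77 (limma adjusted p = 0.0665). After 6.7 Gy neither GREM1 nor CHRDL2 (1.85, limma adjusted p = 0.129) then passed by its brightest probe. Over both doses and without that animal, CHRDL2 was at 1.67 (limma adjusted p = 0.088). NOG, the antagonist noggin, differed by 0.81 ± 0.27 (limma adjusted p = 0.0663). Of 11 BMP receptors and SMADs, 10 were tested, 0 were called by limma with 2 at an unadjusted p below 0.05, and the median was 0.01.

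FOXL1 was at -0.57, -0.58, -0.76 and -0.72 in the controls. On day 4 it was at -0.99, -1.06, -1.02 and -0.55 after 6.7 Gy and at -0.79, -1.03, -0.65 and -0.85 after 7.4 Gy. Of the 6.7 Gy animals 3 lay below all controls and 1 above them. The differences were -0.25 ± 0.14 and -0.17 ± 0.14 (limma adjusted p = 0.304 and 0.496). FOXL1 is a hedgehog target in gut mesenchyme, and of 13 genes of the hedgehog axis 9 were tested and 0 called by limma over both doses, with 4 at an unadjusted p below 0.05 and a median of -0.18.

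**Figure D2:**
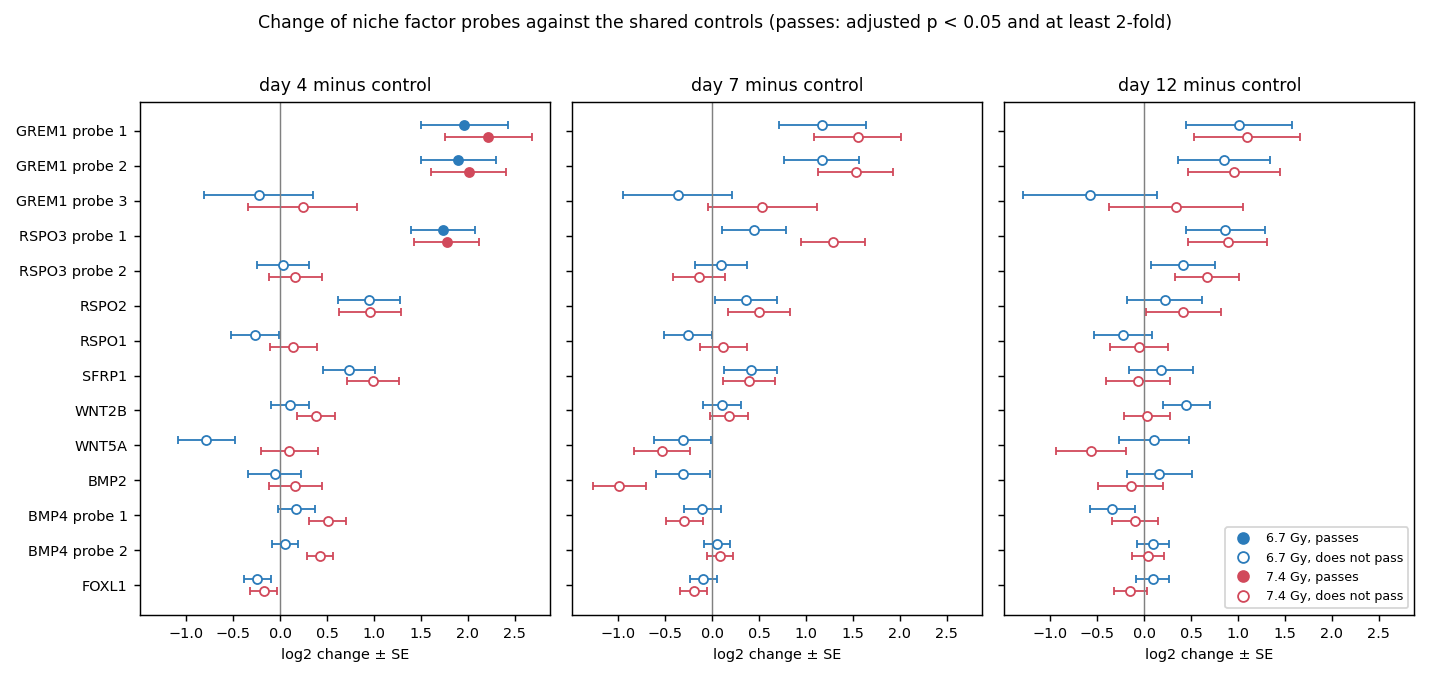
Log2 change of each probe against the 4 shared controls on day 4, day 7 and day 12 (panels), after 6.7 Gy (blue) and 7.4 Gy (red), with bars of 1 SE. Filled points pass the adjusted p and the 2-fold limit. On day 4, GREM1 probes 1 and 2 and RSPO3 probe 1 pass after both doses, at 1.73 to 2.22. No probe passes on day 7 or day 12.

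On day 7, limma called 0 of the 11 probes after 6.7 Gy, where 0.235% of all tested probes were called, 0 after 7.4 Gy (0.568%) and 0 over both doses (0.573%). At an unadjusted p below 0.05 there were 2, 3 and 3. The methods' t-test with Benjamini-Hochberg adjustment called 0 of the 11 in every comparison of a single group with the controls or of the doses on a day. GREM1 probe 1 was at 0.92, 1.89, 1.90 and 2.44 after 6.7 Gy and at 2.16, 2.03, 1.71 and 2.75 after 7.4 Gy, the latter all above the controls. The difference over both doses was 1.36 ± 0.40 for GREM1 probe 1 (2.57-fold, limma adjusted p = 0.112) and 1.35 ± 0.34 for GREM1 probe 2 (2.54-fold, limma adjusted p = 0.0578). GREM1 probe 2 was called in 6 of 9 other settings, among them slide as a fixed block (0.0275), slide as a random block (0.0320), the replicate block (0.0338) and quantile normalization (limma adjusted p = 0.0487), and was at 0.0553 to 0.0811 in the others. Leaving out control replicate 1, the probes were at 0.73 (limma adjusted p = 0.394) and 0.84 (limma adjusted p = 0.24).

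RSPO3 probe 1 on day 7 was at -4.20, -4.60, -4.31 and -4.94 after 6.7 Gy and at -3.84, -3.73, -3.91 and -3.20 after 7.4 Gy. The 7.4 Gy animals lay above all controls and above all 6.7 Gy animals, and of the 6.7 Gy animals 1 lay just above the controls and the others among them. The difference from control was 0.45 ± 0.34 after 6.7 Gy and 1.29 ± 0.34 after 7.4 Gy (limma adjusted p = 0.763 and 0.0791). The difference between the doses was 0.84 ± 0.34, with a limma adjusted p of 0.992.

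BMP2 had its lowest group mean on day 7 after 7.4 Gy, at 0.16, 1.32, 0.93 and 0.34, where 3 animals lay below all controls and 1 among them. After 6.7 Gy it was at 1.44, 1.74, 0.96 and 1.34. The difference from control was -0.99 ± 0.28 after 7.4 Gy (limma adjusted p = 0.11) and -0.31 ± 0.28 after 6.7 Gy. WNT5A was at -6.62 to -6.11 after 7.4 Gy, below all controls, but it entered the test only through the controls. Of the other 10 probes, 2 did not overlap in that group, both of GREM1, where 7.96% of all tested probes did not.

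Between day 4 and day 7, a comparison that uses no control, limma called 0 of the 11 probes at 2-fold, where 1.06% of all tested probes were called. The adjusted p alone was below 0.05 for 2 of 11, BMP2 and BMP4 probe 1, where 13.2% of all probes were. Over both doses BMP2 was lower on day 7 by -0.70 ± 0.20 (limma adjusted p = 0.0256) and BMP4 probe 1 by -0.54 ± 0.14 (limma adjusted p = 0.0164). RSPO3 probe 1 was lower by -0.88 ± 0.24 (limma adjusted p = 0.0214). BMP4 probe 2 differed by -0.18 and RSPO3 probe 2 by -0.12, and neither passed the p limit. The BMP4 and RSPO3 differences therefore rest on probe 1 of each gene. GREM1 probe 1 differed by -0.73 ± 0.33 (limma adjusted p = 0.143), RSPO2 by -0.52 ± 0.23 (limma adjusted p = 0.137) and SFRP1 by -0.46 ± 0.20 (limma adjusted p = 0.123). All 11 BMP antagonists had a lower mean on day 7 than on day 4, where 46.2% of all genes had, with a median of -0.56, 0 called by limma and 6 at an unadjusted p below 0.05, while the median of all genes was 0.03. The day 4 arrays were at positions 1 and 2 and the day 7 arrays at 3 and 4, so day and position cannot be told apart here.

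On day 12, with 2 animals for each dose, limma called 0 of the 11 after 6.7 Gy (0.108% of all tested probes), 0 after 7.4 Gy (0.0443%) and 0 over both (0.244%). At an unadjusted p below 0.05 there were 0, 0 and 2. GREM1 probe 1 was at 1.55 and 1.71 after 6.7 Gy and at 1.04 and 2.38 after 7.4 Gy, with a difference over both doses of 1.05 ± 0.46 (2.07-fold, limma adjusted p = 0.483), or 0.42 without control replicate 1 (1.33-fold). RSPO3 probe 1 was at -3.82 and -4.37 and at -4.43 and -3.71, with a difference of 0.88 ± 0.34 (limma adjusted p = 0.393), or 0.45 without control replicate 1. BMP2 was at 1.93 and 1.76 and at 1.49 and 1.58, and between day 7 and day 12 it differed by 0.66 ± 0.24 (limma adjusted p = 0.235). From day 7 to day 12 limma called 0 of the 11 (0.114% of all probes), with 1 at an unadjusted p below 0.05.

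The 2 doses were compared on each day. Limma called 0 of 11 probes on day 4, on day 7 and on day 12, where 0%, 0% and 0.00277% of all tested probes were called, and at an unadjusted p below 0.05 there were 2, 1 and 0. On day 4, GREM1 probe 1 was 0.26 higher after 7.4 Gy than after 6.7 Gy (95% interval -0.71 to 1.22). RSPO3 probe 1 was 0.04 higher (95% interval -0.68 to 0.75). All 11 probes had a higher mean after 7.4 Gy on day 4, as did 55.4% of all tested probes, with WNT5A at 0.88 ± 0.30 (limma adjusted p = 0.877), or 0.06 with normexp.

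Ordered by group mean, GREM1 probe 1 ran from 7.4 Gy day 4 through 6.7 Gy day 4, 7.4 Gy day 7, 6.7 Gy day 7, 7.4 Gy day 12 and 6.7 Gy day 12 to the controls, and each neighbour in this order overlapped the next. RSPO3 probe 1 had the same first 3 groups and the controls last, again with all neighbours overlapping. RSPO2 had both day 4 groups highest and the controls lowest, and SFRP1 both day 4 groups highest. In BMP4 probe 2 the highest group, 7.4 Gy day 4, did not overlap the next, 6.7 Gy day 12. In WNT2B, WNT5A, BMP2, BMP4 probe 1, FOXL1, RSPO1, GREM1 probe 3 and RSPO3 probe 2 all neighbours overlapped.

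Genes that the 2 pathways are known to act on were counted in the same fit. Of 17 WNT target genes listed, 15 were tested, and AXIN2 and TNFRSF19 were not. Over both doses on day 4 EPHB3, ASCL2 and MYC rose and 0 fell, with 14 of 15 at a higher mean and a median of 0.68. Of all genes 1.59% were called higher and 42.7% had a higher mean, and without control replicate 1 the mean was higher for 13 of 15. ASCL2, the transcription factor of crypt stem cells, was at -2.0 ± 0.30 (SD, n = 4) in the controls, at -0.60 ± 0.23 after 6.7 Gy and at -0.31 ± 0.12 after 7.4 Gy, and rose by 1.55 ± 0.17 over both (2.92-fold, limma adjusted p = 1.41e-05). EPHB3, a receptor that positions cells along the crypt, rose by 1.56 ± 0.21 (2.95-fold, limma adjusted p = 0.000236), and MYC by 1.03 ± 0.20 (2.04-fold, limma adjusted p = 0.00461). LEF1, a partner of beta-catenin, was called after 7.4 Gy alone, at 1.08 ± 0.26 (limma adjusted p = 0.0179). LGR5, also on this list, differed by 0.03. All 3, without control replicate 1, were still called, with a median of 0.48. On day 7 limma called 0 of the 15, with 6 at an unadjusted p below 0.05, although all 15 had a higher mean than the controls, with a median of 0.36. Of all genes 48.2% did, and without control replicate 1 it was 11 of 15.

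Of 8 BMP target genes, 4 were tested (ID1, ID2, ID4 and BAMBI), and limma called 0 on day 4, with 0 at an unadjusted p below 0.05. ID1, a direct target of BMP signalling, differed by -0.03 ± 0.32 and ID2 by -0.11 ± 0.24 over both doses. The median was -0.00, and it was 0.05 with quantile normalization and 0.16 without control replicate 1, so it has no stable sign. ID3, SMAD6, SMAD7 and ATOH8 were not tested.

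**Figure D3:**
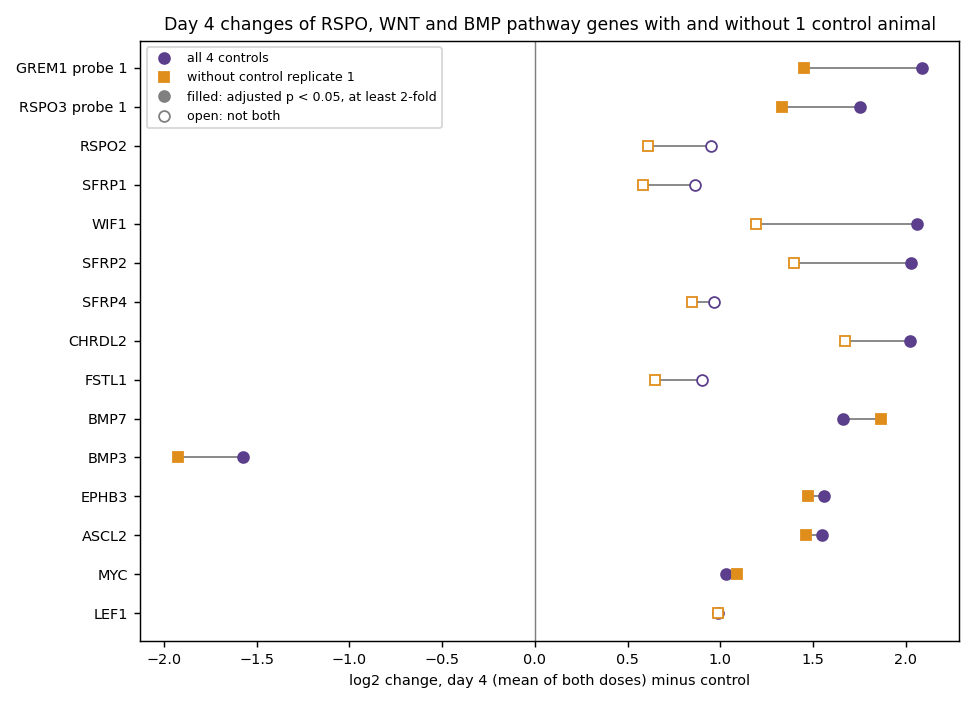
Log2 change on day 4 (mean of both doses minus control) of 15 genes, with all 4 controls (circles) and without control replicate 1 (squares). Filled symbols pass the adjusted p and the 2-fold limit. GREM1, RSPO3, BMP7, BMP3, EPHB3, ASCL2 and MYC pass both ways, and WIF1, SFRP2 and CHRDL2 pass with all 4 controls and not without that animal.

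Markers of other cell types were measured on the same arrays, since they can stand for tissue make-up. Of 13 fibroblast markers 12 were tested, and their mean signal was 0.98 to 1.66 in the controls, 1.5 to 2.37 on day 4 after 6.7 Gy and 2.05 to 2.67 after 7.4 Gy. Of these 12, DCN was called over both doses, and DCN, LUM and COL3A1 after 7.4 Gy, with a median change of 0.58 over both. Of all genes 1.59% were called higher over both doses and 1.87% after 7.4 Gy. Of all tested probes 0.762% were called lower over both doses, and these shares also apply to the marker lists that follow. The mean of 6 smooth muscle markers was 2.13 to 4.46 in the controls, 3.91 to 4.77 after 6.7 Gy and 4.32 to 5.03 after 7.4 Gy. Their median change was 0.57 with 0 called by limma and 1 at an unadjusted p below 0.05, and 0.06 without control replicate 1. Over the same comparison, the median of 3 pericyte markers was 0.94 with 0 called and 3 at an unadjusted p below 0.05. That of 8 enteric neuron markers was 1.0 with 4 called, where 1.59% of all genes were called higher. With control replicate 1 left out, limma called 0 of the fibroblast and 0 of the neuron markers over both doses, with medians of 0.43 and 0.66, and 1 of each after 7.4 Gy. Without that animal 1.07% of all tested probes were called over both doses and 1.11% after 7.4 Gy.

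Epithelial lists differed among themselves. The mean of 10 epithelial markers was 4.53 to 4.95 in the controls, 3.83 to 4.34 on day 4 after 6.7 Gy and 3.92 to 4.23 after 7.4 Gy, without overlap. VIL1, the brush border protein villin, fell by 1.30 ± 0.17 (2.46-fold, limma adjusted p = 0.000132) and FABP1, a fatty acid binding protein of enterocytes, fell by 1.07 ± 0.24 (2.1-fold, limma adjusted p = 0.0118). VIL1 stayed called without control replicate 1, and FABP1 did not (-0.93, limma adjusted p = 0.0572). The mean of 6 enterocyte markers was 0.18 to 1.49 in the controls, -0.21 to 2.28 after 6.7 Gy and 0.85 to 2.08 after 7.4 Gy, with a median change of 0.11. Of these 6, LCT, the lactase, rose by 1.49 (limma adjusted p = 0.0337), and without control replicate 1 it was at 1.59 (limma adjusted p = 0.0705). The mean of 4 crypt stem cell markers was -3.04 to -2.55 in the controls, -2.82 to -0.30 after 6.7 Gy and -1.82 to -1.16 after 7.4 Gy. Their median change was 1.02, or 0.99 without control replicate 1, and ASCL2 alone was called.

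The mean of 5 lymphatic endothelial markers was -2.22 to -1.91 in the controls, -1.78 to -1.08 after 6.7 Gy and -1.57 to -1.16 after 7.4 Gy, without overlap. Over both doses LYVE1, a hyaluronan receptor, and CCL21, a chemokine of lymphatic vessels, rose, by 1.0 and 1.18, and without control replicate 1 CCL21 stayed called and LYVE1 was under 2-fold (0.88). The mean of 6 macrophage markers was 1.92 to 2.33 in the controls, 1.91 to 2.43 after 6.7 Gy and 2.40 to 2.76 after 7.4 Gy, with 0 called by limma over both doses and 3 at an unadjusted p below 0.05. B cell markers had a median of -1.61, and CD79A and CD79B, parts of the B cell receptor, fell. Of 11 telocyte and myofibroblast markers, all tested, BMP7 alone was called, and the median was 0.28. This list holds FOXL1, BMP4 and WNT5A themselves and BMP7, so it is not separate from the genes described. The part of these shifts in the changes of GREM1, RSPO3, RSPO2 and SFRP1 was not tested.

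**Figure D4:**
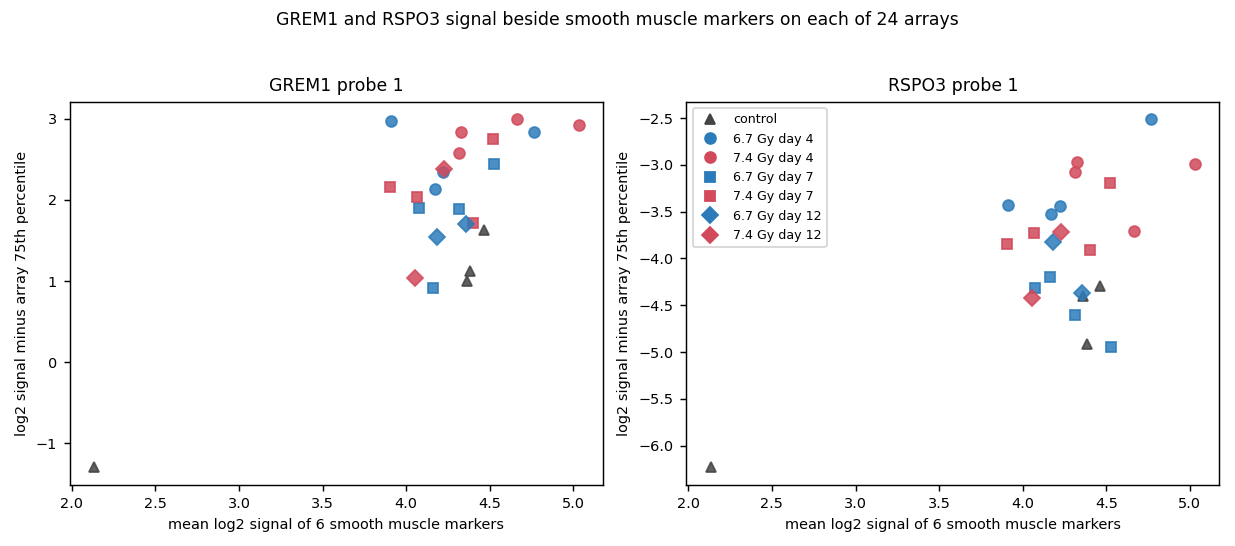
Signal of GREM1 probe 1 (left) and RSPO3 probe 1 (right) on each of the 24 arrays against the mean log2 signal of 6 smooth muscle markers; colour gives the dose and shape the day. Control replicate 1 lies alone at 2.13 on the horizontal axis, the other 3 controls at 4.36 to 4.46, and the day 4 arrays at 3.91 to 5.03, above all controls on the vertical axis.

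Among members, GREM1 probe 1 ran with RSPO3 probe 1 (r = 0.83), SFRP1 (0.75) and RSPO2 (0.74) over the 24 arrays, and RSPO2 with SFRP1 (0.78). With the group means removed, these values were 0.62, 0.58, 0.55 and 0.69. BMP2 had a correlation of -0.23 with GREM1 probe 1, and BMP4 probe 2 one of 0.61. The arrays share tissue make-up and control replicate 1, so these are descriptions.

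Among 17613 probes with a symbol and well above background on all arrays, the closest to GREM1 probe 1 were HSPB8 (r = 0.90), KCNMA1 (0.89) and TGFB3 (0.89). RSPO3 probe 1 was closest to PACSIN3 (0.90), PLXDC1 (0.88) and FAM110B (0.88). RSPO2 was closest to CXCL12 (0.90), SSPN (0.86) and TMTC2 (0.86). SFRP1 was closest to RECK (0.90), FAM110B (0.89) and RCAN2 (0.89), so that FAM110B was near to both SFRP1 and RSPO3.

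The nearest probes to BMP4 probe 1 were GNAI2 (r = 0.86), SETBP1 (0.84) and RIC8B (0.83), and those to BMP2 were LMO7 (0.81), SNRK (0.80) and VEGFA (0.79). WNT2B was nearest to TRPM2 (0.86), CRISPLD2 (0.80) and UNC5B (0.80). WNT5A (RGS11 and HSPG2 at 0.75, SVIL at 0.73) and FOXL1 (PRLH at 0.75, LEO1 and STK40 at 0.70) had lower values. RSPO1 was nearest to MTBP, DCBLD1 and MYH7, each at 0.90.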

How the data were processed

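The authors labelled total RNA of each ileum with Cy3, hybridized it to Agilent Rhesus Macaque arrays without pooling and scanned them. Feature Extraction (version 11.0.1.1) wrote the deposited intensity of each spot, background-subtracted per the file headers. The authors' normalized values are on the log2 scale, made in GeneSpring: each array's 75th percentile was subtracted, and the values show that each probe was then centred on its median over the arrays. Here the deposited intensities were taken again: 43803 of 45220 spots are not controls, spots of a probe were averaged without outlier spots, and the 75th percentile was subtracted on the log2 scale.

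One mean for each of the 7 groups was fitted to all 24 arrays with limma 3.58.1 (R 4.3.3, data.table version 1.17.8), giving 14 comparisons, with Benjamini-Hochberg adjustment over 36110 tested probes within each. Comparisons with the controls share those 4 animals. A call needed an adjusted p below 0.05 and a 2-fold change. The script was tested on simulated data. Genes of the lists were represented by their brightest tested probe. The members and lists were chosen with earlier results of these data known. Named genes were all members, list genes called against the controls (at most 4 a list, 3 a marker list), LGR4, LGR5, LGR6, RNF43 and ZNRF3, and the 3 closest probes of each member. NOG, WNT6, ID1, ID2, ID4 and BAMBI were named after their values were seen, as were the muscle marker ACTG2 and the genes listed as not tested. Precision is limited by the number of animals.

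The labels name no pairing by replicate number, and the main fit used none. Alternatives were normexp background correction (on the median signals, since the files used hold no mean signal), quantile normalization, the deposited normalized table, other filters, moderated variance with a trend, the methods' t-test, replicate, slide and array position as terms, and leaving out each replicate. Values within slides, at the same array position, and of lists without control replicate 1 were added after seeing the data. No probe coordinates are given, since the array was designed on another build than the RefSeq table, and no sequences were used here. One item is not reported here.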

Additional observations from a re-analysis of the deposited data

Results flagged for a closer look

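In 70 sets of 4 animals (14 probes in 5 groups), 10 had 1 animal far from the other 3. For independent, normally distributed values about 1 in 20 sets would. The sets share animals and hold correlated probes, so no excess over that rate can be read from the 10. RSPO3 probe 1 was at -2.51 in replicate 2 of 6.7 Gy day 4, above its group, and at -3.71 in replicate 2 of 7.4 Gy day 4, below its group. RSPO3 probe 2 was at -5.22 in replicate 2 of 7.4 Gy day 4 and at -5.30 in replicate 1 of 7.4 Gy day 7, both high for their groups. RSPO2 was low at -2.62 in replicate 4 of 6.7 Gy day 4, and RSPO1 was high at -3.18 in replicate 2 of that group. GREM1 probe 2 was high at -0.33 in replicate 4 of 7.4 Gy day 7, and BMP2 was high at 2.33 in replicate 1 of 7.4 Gy day 4. FOXL1 was high at -0.55 in replicate 4 of 6.7 Gy day 4 and low at -1.33 in replicate 1 of 7.4 Gy day 7. Control replicate 1, far from the other controls in GREM1 and RSPO3, did not reach this limit in any probe.

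Day 7 and day 4 differed over both doses in RSPO3 probe 1 (-0.88), BMP2 (-0.70) and BMP4 probe 1 (-0.54), each with a limma adjusted p below 0.05 and below 2-fold. Of all tested probes 13.2% had such an adjusted p, and day and array position cannot be told apart here. BMP4 probe 2 (-0.18) and RSPO3 probe 2 (-0.12) did not pass that p limit, so the BMP4 and RSPO3 differences rest on probe 1 of each gene.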

How the results depend on the processing

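Of the 11 member probes, 2 were called on day 4 after 6.7 Gy, 2 after 7.4 Gy and 2 over both doses, and these counts moved by more than 1.5 times under the following alternatives. The methods' t-test with Benjamini-Hochberg adjustment called 0 after 6.7 Gy and 0 after 7.4 Gy (0 and 125 of all probes), and 2 and 2 without adjustment (663 and 1083 of all probes). Array position as a covariate gave 0, 0 and 0 after 6.7 Gy, after 7.4 Gy and over both doses (199, 144 and 272 of all probes). For day 7, where 0 were called, the replicate block gave 1 after 7.4 Gy and 1 over both doses, slide as a fixed block 1 and 2, and slide as a random block 1 and 1. Over both doses on day 7, quantile normalization, the filter for probes above background on all arrays, and the trended robust fit gave 1 each. The added probes were GREM1 probe 2 and, with slide as a fixed block, GREM1 probe 1. The cause was not tested. The replicate block changed no other count, and the correlations between same-numbered animals were -0.26 to 0.23 over 20 pairs, 6 above 0.1. These correlations cannot show whether the numbers pair animals, and the labels name no pairing.

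With 1 animal left out, the counts were 1 to 2 after 6.7 Gy and 2 to 3 after 7.4 Gy on day 4, 2 to 4 over both doses, 0 to 1 on day 7 after 7.4 Gy and 0 to 1 over both. The lower count came without control replicate 1 or 6.7 Gy day 4 replicate 4, the 4 without control replicate 2, the 3 after 7.4 Gy without control replicate 2 or 4, and the day 7 call without control replicate 3 or 6.7 Gy day 7 replicate 1. Without 6.7 Gy day 4 replicate 2 the count after 6.7 Gy stayed at 2, but GREM1 probe 1 lost its call (limma adjusted p = 0.0602). WNT5A (-1.10) took its place there, a probe that entered the test only through the controls, so that call carries no weight. Without control replicate 1, calls over all probes on day 4 went from 743 to 386 over both doses. Of single values, 868 kept their side, 21 gained and 19 lost a call, and 0 reversed. List medians changed sign in 10 of 90 cases, the largest of them 0.08 in size. Dim probes such as RSPO3 and WNT5A are limited by background.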

Other observations

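GREM1 probe 3 and the RSPO1 probe correlated at r = 0.83 over the 24 arrays, and at 0.83 with the group means removed, although GREM1 probe 3 had a correlation of 0.02 with GREM1 probe 1. Both were highest in replicate 4 of 7.4 Gy day 7. WNT2B correlated with BMP4 probe 2 at 0.68 and with RSPO3 probe 2 at 0.52. These values are over arrays that share tissue make-up.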
